A study of Homo sapiens with 16 samples.

Results

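The peaks described here lie on human chromosomes 16, 17, 19 and 22, taken as every row of 12 ChIP-seq peak lists whose chromosome is one of these 4. They number 20451 of 146596 listed peaks, with 4837 on chromosome 16, 6861 on chromosome 17, 5837 on chromosome 19 and 2916 on chromosome 22. The other 18 autosomes hold 123316 peaks and serve as the comparison. Membership went by chromosome name alone and used no measured value, although the chromosomes were chosen with earlier results of these data known.

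The lists come from LoVo, an established colon adenocarcinoma cell line, and ChIP-seq sequences the DNA that an antibody pulls down with its target. Antibodies were against HNF4A, KLF5 and MYC (3 transcription factors), RAD21 and CTCF (proteins that organise chromosome loops), and histone H3. S-phase cells were held by 2 mM thymidine for 12 h, released for 8 h and held by thymidine for another 12 h before harvest. M-phase cells were held by 2 mM thymidine for 12 h and then grown for 8 h with 200 ng/ml nocodazole, a drug that stops cells in mitosis. Each target has 1 library in each phase and all cells are LoVo, so the phases also differ in drug, and the 4 IgG libraries serve only as controls inside the peak calling. RAD21, the 3 factors and H3 share a rabbit IgG control in each phase, whereas CTCF was pulled down with a goat antibody and has its own goat IgG control. The thymidine and nocodazole steps stand in for S phase and mitosis, and how many cells were in each phase is not in the values used.

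Chromosomes 17 and 19 are among the most gene-dense human chromosomes, and chromosomes 16 and 22 are also rich in genes and in GC bases. HNF4A is a nuclear receptor that directs intestinal and liver genes, KLF5 is a Krüppel-like factor with a taste for GC-rich motifs that is active in dividing crypt cells, and MYC binds E-box sequences, mostly at active promoters. CTCF binds DNA at loop ends. RAD21 belongs to the cohesin ring, which extrudes loops, ties sister chromatids to each other and often stops at CTCF. Most transcription factors are thought to leave mitotic chromosomes in part, and most cohesin leaves chromosome arms during mitosis.

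The gene-rich label was checked against RefSeq promoters (GRCh38.p14, names and base content only, without chromosome 8). The 4 chromosomes hold 5517 promoters, 16.4% of those on the tabulated autosomes, on 10.3% of their length. Chromosome 19 has 5.68% of the promoters on 2.35% of the length and chromosome 17 has 4.86% on 2.89%. Chromosome 16 (3.83% on 3.26%) and chromosome 22 (1.98% on 1.82%) are nearer to an even share. The others run from chromosome 13 (2.64% on 4.20%) to chromosome 20 (2.73% on 2.29%), so chromosomes 16 and 22 lie among them. For chromosome 22 this rests on a length of 49560966 bp that counts an empty start. Its lowest and highest peaks span 34331518 bp. Median promoter GC content is 62.0% to 63.3% on the 4 chromosomes and 52.3% to 61.0% on the 17 others in the table. S-phase libraries hold 7520364 to 12182221 filtered tags, and M-phase libraries 7362169 to 16813394. M-phase libraries are 1.10 to 2.19 times as deep as S-phase ones for 5 targets and 0.712 times for KLF5. LoVo cells are known to carry extra copies of several chromosomes, among them 5, 7, 12 and 15. Chromosome copy number is not in the values used, and its part in the densities was not tested.

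In S phase all 6 targets had more peaks per Mb on the 4 chromosomes than on the other autosomes. Among the 5 proteins the ratio was highest for KLF5 and MYC and lowest for RAD21, and that of H3 lay near that of MYC. KLF5 had 1299 peaks on the 4 chromosomes, or 4.63 per Mb against 1.77 per Mb elsewhere, a ratio of 2.61 (95% interval 2.45 to 2.78). Intervals here and below treat peaks as independent counts and cover counting error only. The KLF5 density was 3.06 per Mb on chromosome 16, 5.32 on 17, 6.84 on 19 and 3.51 on 22. All 4 lie above the highest other autosome, chromosome 12 with 2.98 per Mb, although chromosome 16 does so by less than its counting error. Lengths here run to the highest peak end, so they count the empty start of chromosomes such as 13, 14, 15, 21 and 22. Per Mb of the span between the lowest and the highest peak, chromosome 16 (3.06) lay under chromosome 15 (3.14) and chromosome 22 rose to 5.07. MYC had 2245 peaks, 8.00 per Mb against 3.69, a ratio of 2.17 (2.07 to 2.27). Its density was 5.60 per Mb on chromosome 16, 9.46 on 17, 10.99 on 19 and 6.11 on 22, again all above chromosome 12 with 5.52, but by less than the counting error for chromosomes 16 and 22. Per Mb of the span, chromosome 16 (5.60) lay under chromosome 15 (5.77) and chromosome 22 had 8.83.

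HNF4A, the third factor, showed a smaller excess. It had 1982 peaks, 7.06 per Mb against 5.12, a ratio of 1.38 (1.31 to 1.45). Chromosomes 17 (9.13 per Mb) and 19 (8.36) exceeded every other autosome, whereas 16 (5.15) and 22 (5.53) fell among them, with 9 of the 18 at or above chromosome 16. RAD21 had 3216 peaks, 11.5 per Mb against 9.03, a ratio of 1.27 (1.22 to 1.32), with the same order: 14.2 per Mb on chromosome 17, 13.7 on 19, 9.42 on 22 and 8.59 on 16. CTCF had 4133 peaks, 14.7 per Mb against 9.13, a ratio of 1.61 (1.56 to 1.67). Its density was 18 per Mb on chromosome 19, 17.6 on 17, 12.2 on 22 and 11.3 on 16, and 3 other autosomes reached or passed chromosome 16. Chromosomes 17 and 19 therefore held the 2 highest densities of all 5 proteins. The place of chromosome 22 turned on the length used. Per Mb of the span it had 7.98 HNF4A, 13.6 RAD21 and 17.6 CTCF peaks, each above the highest other autosome on that scale (7.73, 13.3 and 13.1), whereas chromosome 16 still lay among the others.

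Histone H3, which is part of every nucleosome, moved the same way. It had 624 S-phase peaks on the 4 chromosomes, 2.22 per Mb against 1.00, a ratio of 2.22 (2.03 to 2.42). Few protein peaks overlapped these H3 peaks, from 0.653% of RAD21 peaks to 1.54% of KLF5 peaks on the 4 chromosomes. With such peaks removed, the density ratios of all 5 proteins stayed within the intervals given here. So few peaks were removed that the ratios could move little. What the H3 excess has to do with that of the proteins was not tested.

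**Figure D1:**
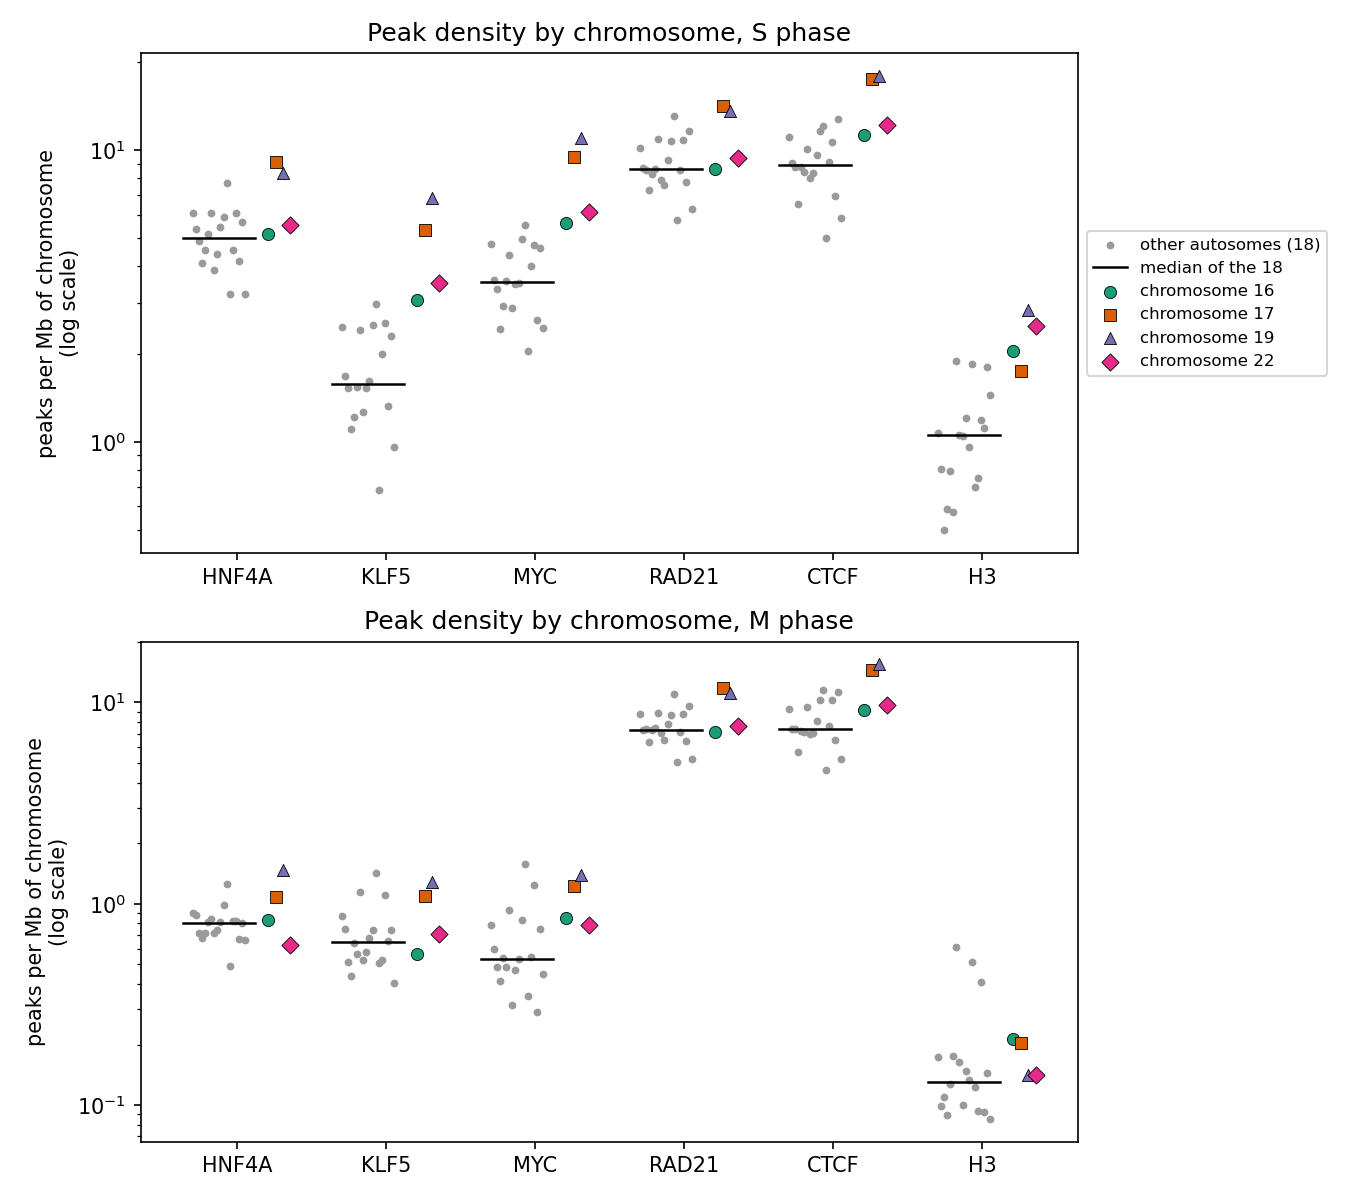
Peaks per Mb of chromosome on a log scale, for each target in S phase (top) and M phase (bottom). Grey points are the 18 other autosomes, the bar is their median, and coloured points are the 4 chromosomes. In S phase all 4 sit above every grey point for KLF5 and MYC, though chromosome 16 does not per Mb of the span, and chromosomes 17 and 19 do so for HNF4A, RAD21 and CTCF.

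In M phase the density ratios of the 5 proteins were still above 1, and those of KLF5 and MYC were lower than in S phase. Every autosomal S-phase factor peak had an FDR under 5%, but few M-phase factor peaks did. Their shares on the 4 chromosomes and elsewhere were 25.7% and 17.8% for KLF5, 5.02% and 4.27% for MYC, and 0% in both for HNF4A. MYC had 299 peaks on the 4 chromosomes, a density ratio of 1.66 (1.46 to 1.88). KLF5 had 253, a ratio of 1.26 (1.10 to 1.43), and HNF4A had 284, a ratio of 1.25 (1.10 to 1.42). The KLF5 ratio was 1.81 among peaks at an FDR under 5% but 1.15 (0.978 to 1.35) without chromosome 17 and 1.10 (0.935 to 1.29) without chromosome 19. The HNF4A ratio was 1.08 (0.833 to 1.38) with a score of at least 100 and 1.09 (0.931 to 1.26) without chromosome 19, so these intervals hold 1. No M-phase factor had all 4 chromosomes above the others: the lowest of the 4 was passed or matched by 5 other autosomes (MYC), 11 (KLF5) or 17 (HNF4A). Per Mb of the span the lowest was chromosome 16 for each factor, passed or matched by 3 (MYC), 13 (KLF5) or 8 (HNF4A). The HNF4A density of chromosome 22 rose there from 0.625 to 0.903 per Mb. CTCF had 3418 peaks with a ratio of 1.53 (1.48 to 1.59), and RAD21 had 2647 with a ratio of 1.23 (1.18 to 1.28). H3 had 51 M-phase peaks on the 4 chromosomes, a ratio of 0.969 (0.711 to 1.29). The M-phase H3 density was highest on chromosomes 7 (0.612 per Mb), 12 (0.514) and 15 (0.409), and without chromosomes 5, 7, 12 and 15 among the others its ratio was 1.43.

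The S-phase excess depended on what else was at a peak. Peaks of CTCF that overlapped no RAD21 peak were 2.17 times as dense on the 4 chromosomes (2.05 to 2.29, 1482 peaks). Their density was 4.32 per Mb on chromosome 16, 6.09 on 17, 6.44 on 19 and 4.22 on 22, above the 3.81 of the highest other autosome in each case. CTCF peaks with RAD21 were 1.41 times as dense (1.35 to 1.47, 2651 peaks). RAD21 peaks with CTCF gave 1.42 (1.36 to 1.47, 2702 peaks), whereas RAD21 peaks without CTCF were sparser on the 4 chromosomes, with a ratio of 0.821 (0.749 to 0.899, 514 peaks). The density of these CTCF-free RAD21 peaks was 1.57 per Mb on chromosome 16, 2.40 on 17, 1.82 on 19 and 1.41 on 22. Those values lie among the other autosomes (1.68 to 3.52) or under them, and per Mb of the span chromosome 22 had 2.04, among them. In the M-phase lists the ratios were 1.83 for CTCF without RAD21 and 0.833 for RAD21 without CTCF.

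HNF4A alone, with no other protein at the peak, was about as dense on the 4 chromosomes as elsewhere, with 828 peaks and a ratio of 1.06 (0.981 to 1.13). HNF4A peaks shared with KLF5 or MYC but not with RAD21 or CTCF had a ratio of 2.15 (1.97 to 2.34, 676 peaks). KLF5 behaved differently: its 221 peaks with no other protein had a ratio of 2.92 (2.50 to 3.40), and its 647 peaks shared with another factor alone had 2.84 (2.59 to 3.10). The 637 MYC peaks with no other protein had a ratio of 2.16 (1.98 to 2.36). At RAD21 or CTCF peaks the ratio of HNF4A was 1.41, that of KLF5 2.22 and that of MYC 2.02.

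**Figure D2:**
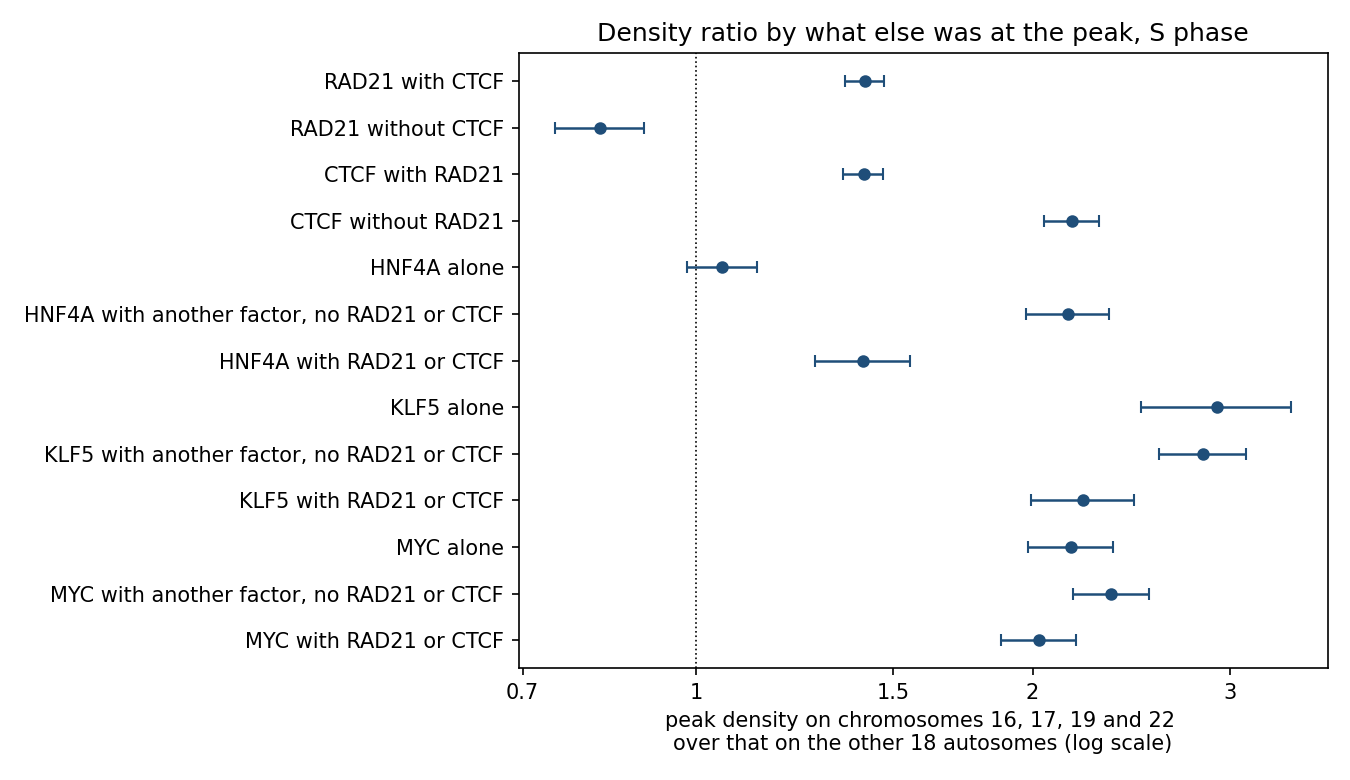
Density of S-phase peaks on chromosomes 16, 17, 19 and 22 over that on the other 18 autosomes, on a log scale, by what overlapped the peak. Points are ratios and bars are 95% counting intervals. RAD21 without CTCF (0.821) is the class under 1, HNF4A alone (1.06) is near 1, and KLF5 alone has 2.92.

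Strength varied less than number. Median widths of S-phase peaks on the 4 chromosomes and elsewhere were 1127.5 and 1157 bp for HNF4A, 1298 and 1340.5 bp for KLF5, 865 and 892 bp for RAD21, and 1430 and 1401 bp for CTCF. The median MACS score, the authors' peak score, was 183.87 on the 4 chromosomes and 156.21 elsewhere for CTCF, and 142.13 and 141.20 for RAD21. Of the 1000 highest-scoring CTCF peaks in S phase, 234 were on the 4 chromosomes (23.4%, 20.8% to 26.2%), whereas these chromosomes hold 14.9% of all autosomal CTCF peaks. The corresponding share was 13.5% of the top 1000 against 12.1% of all for RAD21, and 12.8% against 13.0% for HNF4A.

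RAD21 and CTCF met in unequal proportions on the 4 chromosomes. In S phase 2702 of 3216 RAD21 peaks overlapped a CTCF peak by at least 1 bp (84.0%), against 75.3% on the other autosomes and 76.4% over all 22 autosomes, given below as the share in all. The difference was 8.72 percentage points (7.30 to 10.1). Shares were 81.8% on chromosome 16, 83.0% on 17, 86.7% on 19 and 85.0% on 22, each above the highest of the 18 others (79.9%). In the other direction 2651 of 4133 CTCF peaks overlapped a RAD21 peak (64.1%), against 73.3% elsewhere and 71.9% in all, a difference of -9.16 points (-10.7 to -7.60). Shares of 61.6% on chromosome 16, 65.4% on 17, 64.2% on 19 and 65.3% on 22 all lay under the lowest other autosome (69.1%). CTCF peaks cover 2.19% of the 4 chromosomes and 1.33% of the others, and RAD21 peaks cover 1.01% and 0.827%.

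The same asymmetry appeared in the separate M-phase libraries. There 2124 of 2647 RAD21 peaks overlapped CTCF (80.2%), against 70.8% elsewhere and 71.9% in all, and 2137 of 3418 CTCF peaks overlapped RAD21 (62.5%), against 68.7% elsewhere and 67.8% in all. By chromosome the M-phase shares overlapped with the others. RAD21 with CTCF was 77.4% on chromosome 16 and 78.2% on chromosome 20. CTCF with RAD21 was 65.2% on chromosome 17 and 65.1% on chromosome 14. When each peak had to cover 50% of the other, the S-phase excess of RAD21 peaks with CTCF was 0.351 points (-1.46 to 2.14), and with summits within 100 bp it was 6.26 points. The deficit of CTCF peaks with RAD21 was -12.4 points under the 50% rule.

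Factor peaks that overlapped RAD21 but no CTCF peak made up a smaller share of factor peaks on the 4 chromosomes. In S phase they were 106 of 1982 HNF4A peaks (5.35%), against 9.95% elsewhere and 9.35% in all. For KLF5 it was 70 of 1299 (5.39%), against 14.3% elsewhere and 12.4% in all. For MYC it was 136 of 2245 (6.06%), against 12.5% elsewhere and 11.3% in all. The differences were -4.60, -8.96 and -6.47 points. These are shares and not densities, and KLF5 and MYC had more peaks per Mb in total on the 4 chromosomes. Per Mb, the clusters described below that held factors and RAD21 but no CTCF varied. Their ratios ran from 0.517 (HNF4A with RAD21) to 1.79 (KLF5 and MYC with RAD21, 1.05 to 2.91). All 4 chromosomes had lower shares than any of the 18 others for each factor: 3.75% to 7.10% against 7.84% to 13.7% for HNF4A, 3.90% to 6.94% against 6.98% to 21.99% for KLF5, and 3.99% to 7.66% against 8.83% to 18.4% for MYC. For KLF5 the shares of chromosome 17 (6.94%) and chromosome 9 (6.98%) were nearly equal. Comparing peaks within 10 groups of equal local peak density left differences of -5.88, -8.81 and -6.48 points. In M phase the shares on the 4 chromosomes were 8.10% for HNF4A (12.5% elsewhere, 12.0% in all), 3.95% for KLF5 (9.39% elsewhere, 8.74% in all) and 6.35% for MYC (9.39% elsewhere, 8.92% in all), from 23, 10 and 19 peaks. The differences were -4.41 (-7.45 to -0.42), -5.44 (-7.72 to -2.03) and -3.03 points (-5.73 to 0.57), so that of MYC was within counting error, and the chromosomes overlapped with the others.

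Counted with or without CTCF, overlap with RAD21 was also lower on the 4 chromosomes. KLF5 overlapped RAD21 at 258 peaks (19.9%, 29.6% elsewhere, 27.5% in all), MYC at 494 (22%, 28.2% elsewhere, 27.0% in all) and HNF4A at 313 (15.8%, 18.6% elsewhere, 18.3% in all). The differences were -9.75, -6.23 and -2.85 points. Overlap with CTCF went the other way: 372 HNF4A peaks (18.8%, 13.6% elsewhere, 14.3% in all), 361 KLF5 peaks (27.8%, 24.7% elsewhere, 25.4% in all) and 676 MYC peaks (30.1%, 26.2% elsewhere, 27.0% in all). At equal local peak density the 3 CTCF differences were -0.68, -1.51 and -0.11 points. The HNF4A difference with RAD21 was -0.35 points among peaks with a score of at least 100.

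The factors also met each other in other proportions. HNF4A overlapped KLF5 at 620 of 1982 peaks (31.3%, 19.4% elsewhere, 20.9% in all) and MYC at 854 (43.1%, 32.6% elsewhere, 33.9% in all). From the side of the other factors the overlap with HNF4A was lower: 607 of 1299 KLF5 peaks (46.7%, 54.8% elsewhere, 53.0% in all) and 847 of 2245 MYC peaks (37.7%, 44.4% elsewhere, 43.1% in all). KLF5 and MYC met at 841 KLF5 peaks (64.7%, 66.5% elsewhere, 66.1% in all) and at 850 MYC peaks (37.9%, 32.5% elsewhere, 33.6% in all). KLF5 and MYC peaks cover more of the 4 chromosomes (0.657% and 1.18%, against 0.259% and 0.553%), while HNF4A covers 0.861% against 0.645%. Within groups of equal local peak density the HNF4A differences were 2.18 points with KLF5 (-0.19 to 4.55) and 0.743 points with MYC (-1.76 to 3.25), down from 11.9 and 10.5. The difference of MYC with KLF5 turned there from 5.32 to -1.48 points (-3.93 to 0.98). The median S-phase HNF4A peak on the 4 chromosomes had 76.5 peaks of the 5 proteins within 500000 bp on either side, against 47 elsewhere.

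**Figure D3:**
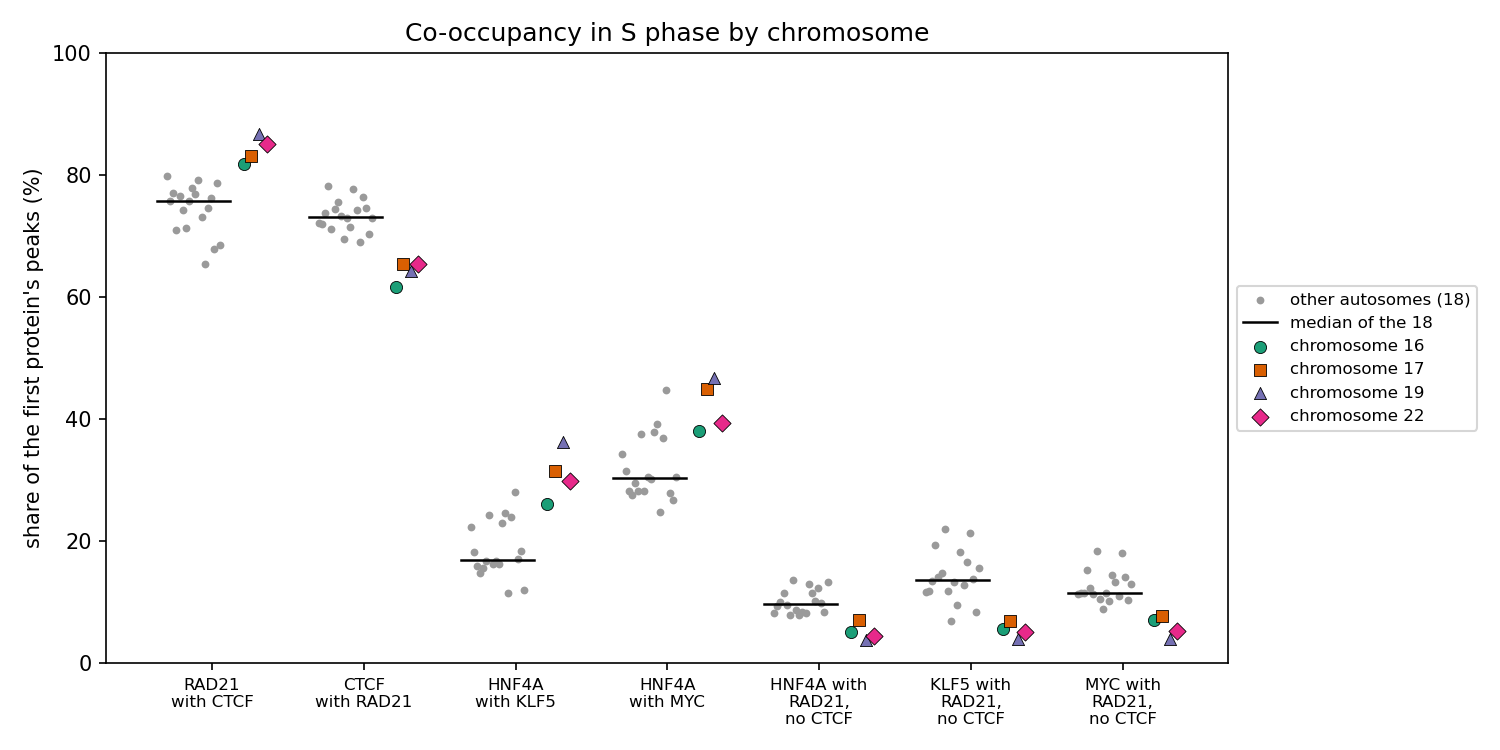
Share of S-phase peaks of the first protein that overlap the partner, in percent, by chromosome. Grey points are the 18 other autosomes with their median, and coloured points are the 4 chromosomes. The 4 lie above all others for RAD21 with CTCF (84.0% together) and under all others for CTCF with RAD21 (64.1%) and for each factor at RAD21 without CTCF (5.35% to 6.06%). For KLF5 at RAD21 without CTCF, chromosome 17 (6.94%) and chromosome 9 (6.98%) are nearly equal.

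Joining S-phase peaks of the 5 proteins that lay within 1000 bp gave 6695 clusters on the 4 chromosomes and 40937 on the others. All 5 proteins were present in 107 clusters on the 4 chromosomes (1.60%), against 446 elsewhere (1.09%) and 1.16% in all. Per Mb these 5-protein clusters were 2.21 times as frequent (1.77 to 2.73), with 38 on chromosome 17, 36 on 19, 20 on 16 and 13 on 22. Chromosomes 17 (0.483 per Mb) and 19 (0.564) lay above the highest other autosome, chromosome 12 with 61 (0.461). Chromosomes 16 (0.226) and 22 (0.262, or 0.379 per Mb of the span) lay under chromosome 12, and chromosomes 7 (0.265), 11 (0.312) and 15 (0.349) also passed chromosome 16. Compositions differed in their ratio: KLF5 with MYC and no other protein gave 3.07 (206 clusters), HNF4A with KLF5 and MYC gave 2.77 (275), KLF5 with CTCF gave 5.93 (38, 3.84 to 9.07), and HNF4A with RAD21 gave 0.517 (25, 0.331 to 0.774). An M-phase factor peak overlapped 41 of the 107 clusters (38.3%, 29.1% to 48.2%), against 36.3% of those elsewhere.

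Peaks were unevenly spread along the 4 chromosomes. In windows of 1000000 bp the median was 39 S-phase peaks of the 5 proteins, against 24 elsewhere, and 31 of 282 windows held at least 100, against 31 of 2596. Of the 20 densest windows in the autosomes, 5 were on chromosome 17 and 5 on chromosome 19. The densest of all, chr17:7000001-8000000 (hg18), held 28 HNF4A, 22 KLF5, 44 MYC, 33 RAD21 and 42 CTCF peaks in S phase and 5, 2, 8, 30 and 40 in M phase. On chromosome 19 the densest window was chr19:1000001-2000000 with 158 peaks, and on chromosomes 16 and 22 it was chr16:1-1000000 with 114 and chr22:36000001-37000000 with 103. The 10% densest windows held 25.5% of the peaks of the 4 chromosomes and 27.2% of those elsewhere.

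From S to M phase the KLF5 list shortened more on the 4 chromosomes than elsewhere. The M-phase KLF5 list holds 2118 peaks, a number that the labels attach to the M-phase rabbit IgG library while giving none for KLF5, whereas the header of the list names KLF5 as the sample and that IgG as its control. The list was taken as that of KLF5. On the 4 chromosomes KLF5 went from 1299 to 253 peaks, a 5.13-fold drop, against 2.47-fold on the other autosomes. All 1299 had an FDR under 5%, but only 65 of the 253 did, and 330 of 1853 M-phase peaks elsewhere. The drop was 5.42-fold on chromosome 16, 4.86-fold on 17, 5.32-fold on 19 and 4.97-fold on 22, and 1.34-fold to 3.79-fold on the 18 others, with no overlap. The fold on the 4 chromosomes was 2.07 times that elsewhere (1.79 to 2.40). Among peaks with a score of at least 100 in both lists this relative fold was 1.48 (0.948 to 2.32), and at an FDR under 5% it was 1.44 (1.09 to 1.89).

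The other targets differed less or less evenly. MYC dropped 7.51-fold against 5.73-fold, with 6.63-fold to 7.88-fold on the 4 chromosomes inside the 3.49-fold to 9.13-fold of the others. The relative fold of MYC was 1.31 (1.15 to 1.49), but 1.13 (0.883 to 1.45) with a score of at least 100. HNF4A went down 6.98-fold against 6.35-fold and RAD21 1.21-fold against 1.18-fold, and their relative folds of 1.10 (0.963 to 1.26) and 1.03 (0.976 to 1.09) were within counting error of 1. CTCF went down 1.21-fold against 1.15-fold, a relative fold of 1.05 that was 1.00 with a score of at least 100 and turned to 0.927 (0.866 to 0.993) at an FDR under 5%. H3 dropped 12.2-fold against 5.35-fold, from 20-fold on chromosome 19 to 8.63-fold on 17, and 1.75 times as far on the 4 chromosomes as on the other autosomes without 5, 7, 12 and 15. Pooled over the 4 chromosomes the H3 list thus moved in the same direction as the KLF5 list, from 51 M-phase H3 peaks. By chromosome the H3 drop overlapped with the others (2.90-fold to 17-fold). The 17-fold drop was on chromosome 21, from 68 S-phase and 4 M-phase H3 peaks. The part of H3 in the KLF5 result was not tested.

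**Figure D4:**
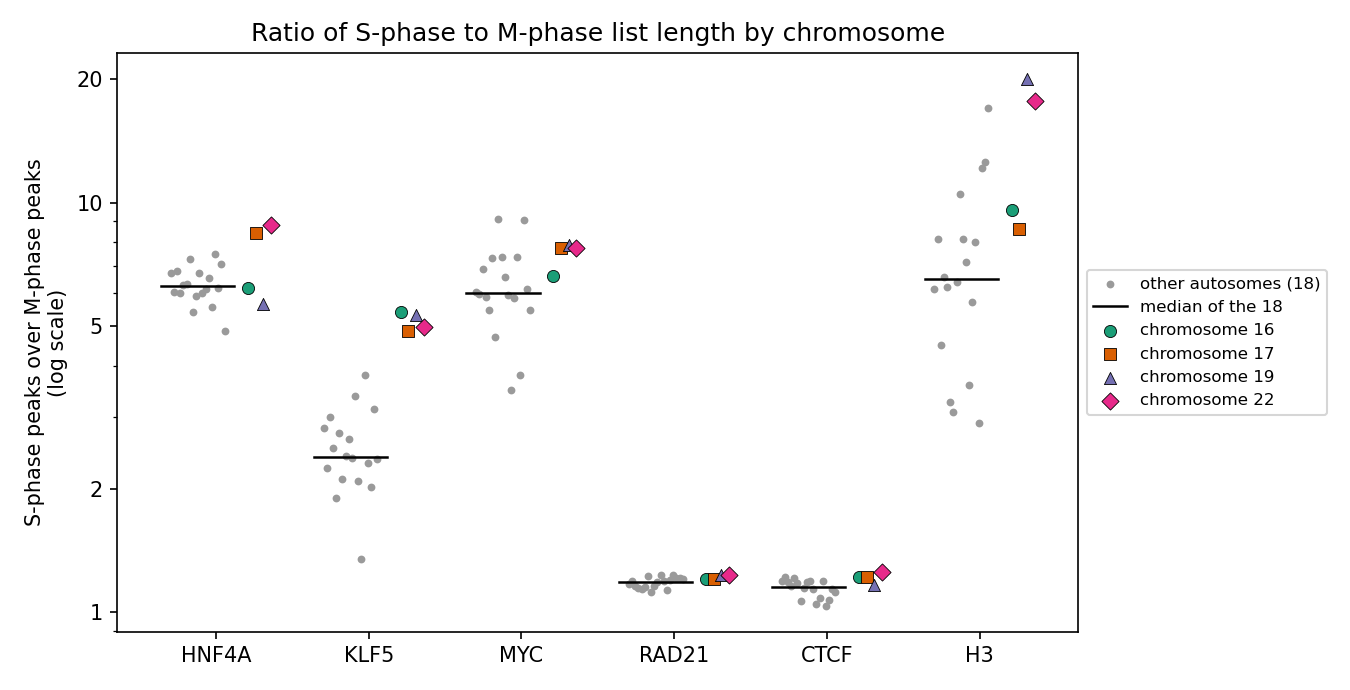
Number of S-phase peaks over the number of M-phase peaks by chromosome, on a log scale, for each target. Grey points are the 18 other autosomes with their median, and coloured points are the 4 chromosomes. For KLF5 the 4 chromosomes (4.86 to 5.42) lie above all others (1.34 to 3.79).

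Seen from the M-phase lists, KLF5 peaks on the 4 chromosomes were more often at an S-phase site. Of 253 M-phase KLF5 peaks 126 overlapped an S-phase KLF5 peak (49.8%), against 30.0% elsewhere and 32.4% in all, a difference of 19.8 points (13.3 to 26.2). This excess was not present among peaks at an FDR under 5%, where the difference was -4.03 points. The MYC share was 268 of 299 (89.6%, 73.9% elsewhere, 76.3% in all), with a difference of 15.7 points that was 0 at an FDR under 5%. It was for CTCF 2994 of 3418 (87.6%, 82.1% elsewhere, 82.9% in all), for HNF4A 233 of 284 (82.0%, 79.8% elsewhere, 80.1% in all) and for RAD21 2192 of 2647 (82.8%, 82.2% elsewhere, 82.3% in all). H3 had 18 of 51 (35.3%, 15.3% elsewhere, 17.2% in all). M-phase peaks more than 1000 bp from any S-phase peak of their target were as dense on the 4 chromosomes as elsewhere for CTCF (392 peaks, ratio 1.02, 0.915 to 1.13) and denser for RAD21 (438 peaks, 1.198, 1.08 to 1.32). They were sparser for MYC (26 peaks, 0.576, 0.372 to 0.856), and KLF5 had 119 with a ratio of 0.856 (0.704 to 1.03).

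The share of S-phase peaks that kept an overlapping M-phase peak of the same target differed little. KLF5 kept 121 of 1299 on the 4 chromosomes (9.31%), against 12.0% elsewhere and 11.4% in all, a difference of -2.72 points (-4.48 to -0.79). It was -1.63 points (-3.61 to 0.58) without chromosome 16, -1.87 (-3.96 to 0.80) with a score of at least 100 and -3.08 (-7.14 to 1.38) for the strongest S-phase peaks alone, so these intervals hold 0. Its share was 5.17% on chromosome 16, 10.8% on 17, 11.5% on 19 and 6.90% on 22, inside the range of the others (6.67% to 15.99%) except on chromosome 16. HNF4A kept 226 of 1982 (11.4%, 12.4% elsewhere, 12.3% in all) and MYC kept 266 of 2245 (11.8%, 12.8% elsewhere, 12.6% in all), with intervals of the difference from -2.47 to 0.55 and from -2.43 to 0.56 points. RAD21 kept 2202 of 3216 (68.5%, 70.0% elsewhere, 69.8% in all), a difference of -1.56 points (-3.29 to 0.13). CTCF kept 2915 of 4133 (70.5%, 69.9% elsewhere, 70.0% in all), and H3 kept 18 of 624 (2.88%, 2.85% elsewhere, 2.86% in all).

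Peak strength bore on these shares. Among the strongest S-phase peaks by score, in 3 equal groups, CTCF kept 94.2% and RAD21 96.1% on the 4 chromosomes, against 38.1% and 38.1% among the weakest. Compared within 10 groups of equal score, the differences from the other autosomes were -2.34 points for KLF5 (-4.01 to -0.68), -1.64 for MYC (-2.97 to -0.31), -1.69 for RAD21 (-3.14 to -0.24), -1.97 for CTCF (-3.24 to -0.71) and -0.42 for HNF4A (-1.63 to 0.80). Within groups of equal local peak density the RAD21 difference was 0.0042 points (-1.83 to 1.84). The CTCF difference changed sign with the setting, since it was 0.59 points without the score groups, -4.21 points with 50% overlap of each peak and 4.24 points at an FDR under 5%. RAD21 peaks with CTCF kept 76.4% on the 4 chromosomes against 82.1% elsewhere, and RAD21 peaks without CTCF kept 26.7% against 33.2%. Both classes thus differed by more than all RAD21 peaks together (-5.70 and -6.52 points, and -3.94 and -4.26 within score groups).

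At sites with exactly 1 peak in each phase, tags per 1000000 library tags were compared as the log2 of M over S. KLF5 had a median of -1.19 at 114 sites on the 4 chromosomes and -0.94 at 542 sites elsewhere. It was -1.26 on chromosome 16, -1.18 on 17, -1.18 on 19 and -1.21 on 22, all under the lowest other autosome (-1.10), from 14, 41, 48 and 11 sites. Quartiles of the 114 sites were -1.69 and -0.56, so this gap is small beside the spread of single sites. M-phase tags were at most 0.5 times the S-phase tags at 68 of the 114 sites (59.6%), against 45.4% elsewhere and 47.9% in all. RAD21, which lost least, had a median of -0.53 at 2172 sites against -0.41 elsewhere, with 363 sites at or under 0.5 times (16.7%, 10.7% elsewhere, 11.4% in all). CTCF had -1.73 at 2839 sites against -1.58, with 2403 sites (84.6%, 79.0% elsewhere, 79.8% in all).

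HNF4A and MYC showed the largest falls in both sets of chromosomes. HNF4A had -1.97 at 219 sites against -1.85, with 207 at or under 0.5 times (94.5%, 93.1% elsewhere, 93.3% in all). MYC had -1.89 at 256 sites against -1.78, with 234 (91.4%, 88.4% elsewhere, 89.0% in all). The median was therefore lower on the 4 chromosomes for all 5 proteins, by 0.10 to 0.25 on the log2 scale, and the chromosomes overlapped with the others for all but KLF5. M-phase peaks at these sites were narrower for HNF4A (720 against 1463 bp), KLF5 (823.5 against 1691 bp), MYC (1089.5 against 1774.5 bp) and CTCF and wider for RAD21 (1030.5 against 932 bp). Elsewhere these widths were 789 against 1489 bp for HNF4A, 877 against 1663.5 bp for KLF5 and 1174 against 1843.5 bp for MYC. The 3 factors thus narrowed more on the 4 chromosomes, and their tag differences include this narrowing. Per kb of peak the RAD21 difference was -0.08 and the CTCF difference -0.09. H3 had 18 such sites with a median of -0.997, against -1.203 elsewhere.

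**Figure D5:**
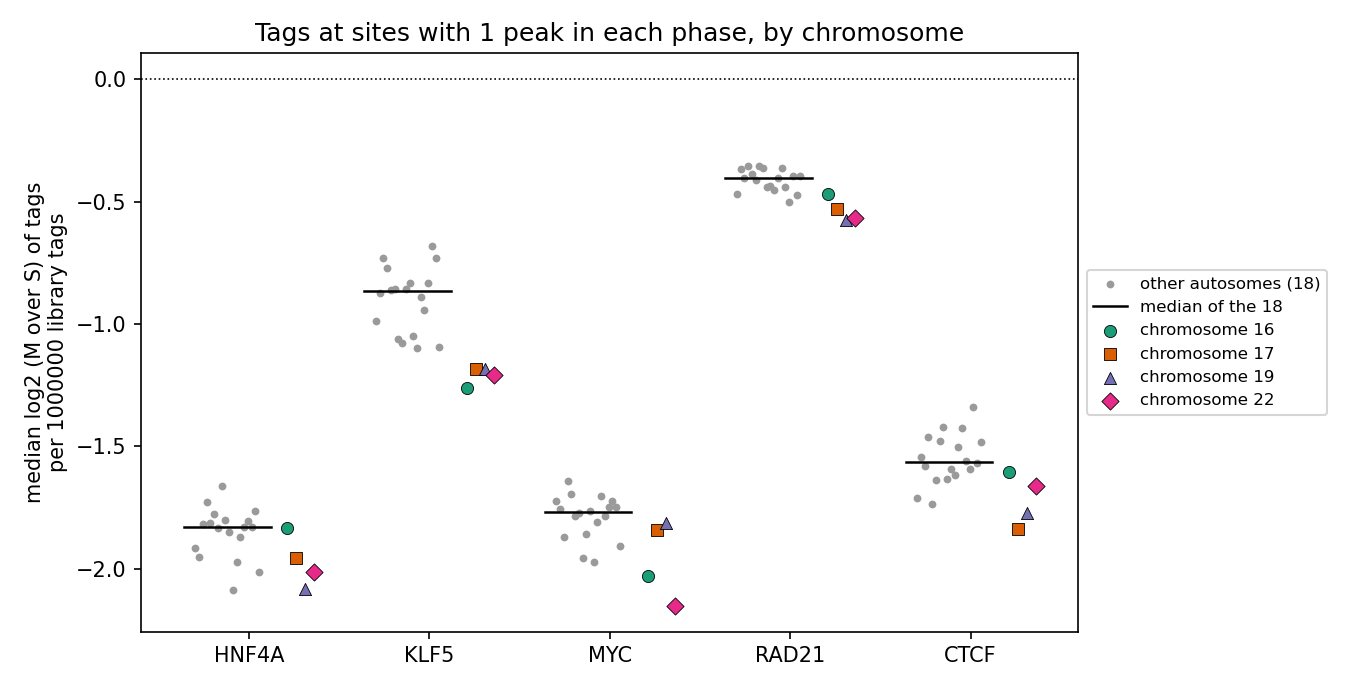
Median log2 of M-phase over S-phase tags per 1000000 library tags at sites with 1 peak in each phase, by chromosome. Grey points are the 18 other autosomes with their median, and coloured points are the 4 chromosomes. All medians are under 0, and for KLF5 the 4 chromosomes (-1.26 to -1.18) lie under all others, by little beside the spread of single sites.

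Single sites show the range of these changes, named by the highest MACS fold enrichment in each class and away from H3 peaks, with coordinates in hg18. The authors' fold enrichment compares a peak with its IgG control. The strongest kept HNF4A peak, chr17:7922757-7924603, had 215 tags and an enrichment of 82.14 in S phase and also overlapped KLF5, MYC, RAD21 and CTCF. In M phase its HNF4A peak had 49 tags and an enrichment of 8.69, and RAD21 and CTCF were still listed there while KLF5 and MYC were not. The strongest kept MYC peak, chr17:46585244-46587191, overlapped all 4 other proteins in S phase, and went from 165 tags (17.8 per 1000000) to 103 (6.71). The MYC peak at chr17:24070473-24072613 overlapped no other protein in either phase and was kept, with 144 S-phase and 81 M-phase tags. KLF5 at chr19:1603584-1604383 had 95 S-phase tags, with HNF4A and MYC beside it, and 27 M-phase tags, with neither.

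Strong S-phase peaks without an M-phase peak within 1000 bp included MYC at chr19:10077494-10078865 with 105 tags and an enrichment of 53.96, HNF4A at chr17:13936217-13937645 with 86 tags and 48.73, and KLF5 at chr16:70313697-70314830 with 49 tags and 30.49. MYC at chr19:17831377-17833309 (124 tags) was not listed in M phase, although RAD21 and CTCF were listed there in both phases. The strongest kept RAD21 peak, chr19:46902070-46903809, overlapped all 4 other proteins in S phase and CTCF alone in M phase, and it had 154 tags (20.4 per 1000000) and 162 tags (9.81). The strongest CTCF peak, chr16:56239320-56241658, had 311 tags and an enrichment of 250.59 in S phase and 184 tags and 52.46 in M phase, with RAD21 in both. Peaks listed in M phase alone included MYC at chr19:6231250-6231772 (14 tags, 9.58) and KLF5 at chr16:77993579-77994442 (15 tags, 18.34), whose enrichment was above the 13.13 of M-phase KLF5 at the kept site chr19:1603584-1604383. The highest was CTCF at chr17:68168456-68169401 (45 tags, 33.11).

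The richest S-phase cluster was on chromosome 17, at chr17:40559642-40569650, with 2 HNF4A, 1 KLF5, 5 MYC, 3 RAD21 and 2 CTCF peaks over 10009 bp. In M phase it held 1 KLF5, 3 RAD21 and 3 CTCF peaks and no HNF4A or MYC peak. On chromosome 19 the cluster at chr19:45798379-45806120 held 12 peaks of all 5 proteins and kept 2 HNF4A, 1 KLF5, 1 MYC, 1 RAD21 and 2 CTCF peaks in M phase. On chromosome 16 (chr16:84200718-84208079, 8 peaks) and chromosome 22 (chr22:36833197-36841536, 7 peaks) the clusters held M-phase RAD21 and CTCF peaks and none of the 3 factors. None of the 4 clusters overlapped an H3 peak in either phase.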

How the data were processed

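ChIP-seq of 6 targets in S-phase and M-phase LoVo cells was analysed from 12 peak lists, 1 library each. Per the file headers, the authors called peaks in each library against its IgG control with MACS 1.4.0rc2 at a p cutoff of 1e-05, a band width of 300 bp and an effective genome size of 2750000000. The submitters' processing notes name CASAVA 1.4, BWA and hg18 without their settings. The deposited tag counts are whole numbers per peak, and the deposited score is MACS's -10 log10 p. Fold enrichment over the control is a ratio in the deposited lists, and the FDR of each peak is a percent, per the file headers. Per those headers, at most 1 tag per position was used and the smaller of sample and control was scaled towards the larger.

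Here rows were split by chromosome, and chromosome length was taken as the highest peak end in any list. Overlap means at least 1 shared bp within a phase or between phases. Shares have 95% Clopper-Pearson intervals, their differences Newcombe intervals, and density ratios exact conditional intervals. With 1 library per target and phase no test was run. Tags were divided by each library's filtered tags. Clusters join peaks within 1000 bp. Local density counts S-phase peaks of the 5 proteins within 500000 bp. Named sites are, for each protein away from H3 peaks, the 2 kept and the 2 unmatched S-phase peaks and the 1 M-phase peak without an S-phase peak within 1000 bp that have the highest fold enrichment. The cluster with most proteins, peaks and width and the densest window of 1000000 bp were named for each chromosome. Not all of these are printed. The chromosomes, classes and settings were chosen with earlier results of these data known. Code was tested on simulated data (Python 3.11.15, numpy 2.4.6, pandas 2.3.3, scipy 1.17.1, matplotlib 3.10.9). No sequence is printed and no gene assigned, since no hg18 genome was used here.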

Additional observations from a re-analysis of the deposited data

How the results depend on the processing

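The main settings were compared with 396 alternatives of 53 results, of which 276 stayed within the 95% interval of the main value, 113 left it in the same direction or from an interval that held no difference, and 7 turned the direction. A count of peaks in 1 library per phase limits all of them, M-phase H3 and the M-phase factors most, and neither biological spread nor antibody efficiency can be estimated. Comparisons without chromosomes 5, 7, 12 and 15, by local density for co-occupancy, of list lengths, of RAD21 and CTCF classes, per kb of peak and of single chromosomes per Mb of the span were chosen after seeing the data. The causes of the shifts below were not tested. No paired analysis was possible because each target has 1 library in each phase. An FDR under 5% left no M-phase HNF4A peak and no M-phase H3 peak on the 4 chromosomes, so these gave no value.

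Density ratios with gaps of 1000000 bp or more left out of the lengths were 1.45 (HNF4A), 2.29 (MYC), 1.34 (RAD21) and 1.70 (CTCF) in S phase, and 1.30 (RAD21) and 1.62 (CTCF) in M phase. With a score of at least 100 they were 1.31 (HNF4A), 2.41 (KLF5), 1.68 (CTCF) and 2.65 (H3) in S phase. In M phase that score gave 1.08 (HNF4A), 1.63 (KLF5), 1.99 (MYC), 1.68 (CTCF) and 1.32 (H3), and in S phase 0.746 for RAD21 without CTCF and 2.59 for CTCF without RAD21. At an FDR under 5% they were 1.67 (CTCF) and 2.45 (H3) in S phase and 1.81 (KLF5), 1.95 (MYC) and 1.80 (CTCF) in M phase. Without chromosomes 5, 7, 12 and 15 among the others they were 1.45 (HNF4A), 2.80 (KLF5), 1.33 (RAD21), 1.67 (CTCF) and 2.50 (H3) in S phase and 1.44 (KLF5), 1.98 (MYC), 1.29 (RAD21), 1.62 (CTCF) and 1.43 (H3) in M phase. In the M-phase lists CTCF without RAD21 gave 1.83. Leaving out 1 of the 4 chromosomes at a time gave S-phase ranges of 1.22 to 1.55 (HNF4A), 2.24 to 3.02 (KLF5), 1.93 to 2.47 (MYC), 1.15 to 1.42 (RAD21), 1.49 to 1.79 (CTCF), 0.721 to 0.876 (RAD21 without CTCF) and 2.03 to 2.35 (CTCF without RAD21). The M-phase ranges were 1.09 to 1.36 (HNF4A), 1.10 to 1.48 (KLF5), 1.11 to 1.37 (RAD21) and 1.41 to 1.71 (CTCF). The lowest values came without chromosome 17 or 19.

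The S over M list length on the 4 chromosomes relative to the others, with a score of at least 100, was 1.48 (KLF5), 1.13 (MYC) and 1.00 (CTCF). At an FDR under 5% it was 1.44, 1.12 and 0.927, and without chromosomes 5, 7, 12 and 15 it was 1.15 for MYC. At that FDR the differences in M-phase peaks with an S-phase peak were -4.03 (KLF5), 0 (MYC, from 15 peaks on the 4 chromosomes) and 2.58 points (CTCF). The kept-share difference of CTCF was 3.14 points with the score minimum, 4.24 at the FDR limit, -4.21 with 50% overlap, -1.97 within score groups and -1.28 within local density groups. The RAD21 difference was -3.56 with the score minimum, and the H3 difference was -2.10 with it and -2.77 for the strongest S-phase peaks alone. Per kb of peak the log2 differences were -0.0761 (RAD21) and -0.0876 (CTCF).

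Co-occupancy differences under the 50% rule were 9.57 (HNF4A with KLF5), 8.01 (HNF4A with MYC), 2.70 (HNF4A with CTCF), -6.22 (KLF5 with RAD21), -3.60 (MYC with RAD21), 0.351 (RAD21 with CTCF) and -12.4 points (CTCF with RAD21). With summits within 100 bp they were 4.52, 3.04 and 0.610 for HNF4A with KLF5, MYC and CTCF, -3.64 and -2.24 for KLF5 with HNF4A and RAD21, and 6.26 for RAD21 with CTCF. For MYC with HNF4A, KLF5, RAD21 and CTCF they were -3.27, 1.70, -2.02 and 1.42. With the score minimum they were 6.60, -0.352 and 3.29 for HNF4A with KLF5, RAD21 and CTCF, -1.22 for KLF5 with CTCF, and 1.396 and -3.59 for MYC with KLF5 and RAD21. Within score groups CTCF with RAD21 gave -11.1. Within local density groups HNF4A with KLF5, MYC, RAD21 and CTCF gave 2.18, 0.743, -7.80 and -0.682, and KLF5 with RAD21 and CTCF gave -12.6 and -1.51. There MYC with HNF4A, KLF5, RAD21 and CTCF gave -9.77, -1.48, -8.89 and -0.107, RAD21 with CTCF gave 6.07 and CTCF with RAD21 gave -7.01. Leaving out 1 chromosome at a time gave -9.21 to -5.59 for MYC with HNF4A.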
